A study of Columba livia with 10 samples.

Results

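Among the rested pigeons of this study, 3 cerebellum libraries contained transcripts of genes on the W chromosome and 2 did not, and those 2 kinds of library were compared with each other. The libraries were selected on the level of W-linked transcripts in their count tables. Those with W-linked expression are control 3, control 4 and control 5. Those without it are control 1 and control 2. They are called W-expressing and W-absent controls below. These are 5 of the 10 libraries of the series. The other 5 came from birds that had raced and serve here as a reference. All birds were racing homers, domestic pigeons (Columba livia) bred to fly back to their loft. They were of one age, lived in one loft, were fed on a competition schedule and were trained by the widowhood method, in which the motivation to return is a separated mate. Control birds covered 0 km and were kept at home on race day, while race birds flew 300 km and were killed after they came home. Birds of both groups were sedated and killed by cervical dislocation, and the cerebellum was dissected. The labels describe neither the age in years nor the sex of any bird, so the W-linked transcripts in the count tables are the only basis of the split.

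The link between bird and count table limits every comparison below. For 9 of the 10 samples the title and the attached count table carry different library numbers, and going by those numbers 6 tables would belong to the other group. The tables of control 3, control 4 and control 5 would then be race birds, those of race 1, race 2 and race 3 would be rested birds, and control 1, control 2, race 4 and race 5 would stay where they are. Under that reading the split of these 5 libraries by W-linked expression is also their split by flight, the race reference mixes rested and raced birds, and the effects of W-linked expression and of flight cannot be told apart. Each table is taken here as belonging to the record it is attached to. The labels present each library as 1 bird, and p-values measure the spread between these libraries.

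In birds the female carries a Z and a W chromosome and the male carries a pair of Z chromosomes. The W chromosome is small and retains few genes, most of which have a related copy on Z. Birds have no chromosome-wide silencing of a Z copy in males comparable to mammalian X inactivation, and Z-linked genes are therefore known to be only partly balanced between the sexes, gene by gene. The cerebellum is dominated by granule cells, with Purkinje cells as its output neurons and interneurons and glia around them.

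Total gene counts lay between 17953704 and 23344086 per library, and no 2 libraries agreed within sampling noise (lowest chi-square 26.3 per gene over 45 pairs). Of the 24 granule cell genes in the tables none was at 0 in all libraries, and their summed level was 6563, 5167 and 8697 CPM (counts scaled to a common library total) in control 3, control 4 and control 5, 9900 and 7947 CPM in control 1 and control 2, and 6691 to 9277 CPM in race libraries. Among them 2 libraries stood apart. Control 4 also contained transcripts of forebrain genes. Control 1 had a median Spearman correlation of 0.895 with the other libraries, where the other 9 had 0.948 to 0.973. Both W-absent controls, control 2 included, also differed from all other libraries in how reads were counted. Reads that met no gene made up 15.7% and 15.1% of counts in control 1 and control 2, against 17.8% to 20.8% elsewhere. Genes detected were 16730 and 16796, against 16923 to 17613 elsewhere. The part of these differences in the comparisons below was not tested. Medians of gene lists are given with their values without the controls that moved them most. CPM values below are scaled by the trimmed mean of M values (TMM) over all 10 libraries.

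The W-linked genes themselves define the arms and are given as a description, with no test. Of 303 W-linked genes in the count tables, 195 are protein-coding. At least 1 CPM was reached by 94, 92 and 93 of these in control 3, control 4 and control 5, against 29 each in control 1 and control 2 and 24 to 32 in race libraries. The split was therefore wide, with 92 genes in the lowest library on one side and 32 in the highest on the other. W-linked genes of 2 kinds lay behind these numbers. A first kind, 77 genes, stayed under 1 CPM in all 7 libraries on the low side and averaged at least 1 CPM in control 3 and control 5. A second kind, 33 genes, had a median of at least 1 CPM in the 7 libraries on the low side. In 1 of these 33 all 3 W-expressing libraries still lay above all 7 others. It is LOC135577036, at 49.1, 33.1 and 52.5 CPM in control 3, control 4 and control 5, against 4.62 and 4.21 CPM in control 1 and control 2 and 1.79 to 3.92 CPM in race libraries. Of the rest, 179 stayed under 1 CPM in every library and 14 were of neither kind.

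The 77 separating genes together gave 2357, 921 and 2240 CPM in control 3, control 4 and control 5, against 3.06 and 2.16 CPM in control 1 and control 2. In race libraries the same sum was 0.613 to 2.18 CPM. In raw reads these sums were 47733, 17822 and 50047 in the W-expressing libraries, against 57 and 38 in control 1 and control 2. The 2 kinds also lay in different places on the chromosome. In the gene order of assembly bColLiv1.pat.W.v2, 31 of the 33 genes of the second kind were among the first 95 genes of W, against 4 of the 77 separating genes, of which 73 followed after that point. No rule set the limit of 95 genes, so these counts are a description without a test.

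**Figure D1:**
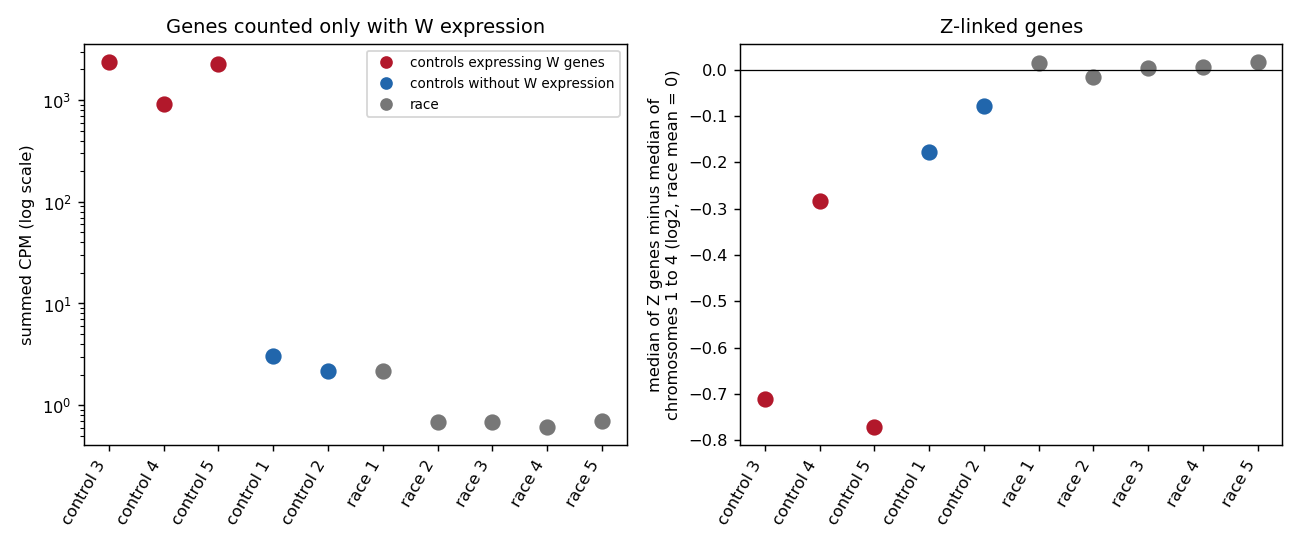
Left, summed CPM on a log scale of the 77 W-linked genes that stay under 1 CPM in the 7 libraries on the low side; right, median log2 difference from the race mean of Z-linked genes minus that of genes on chromosomes 1 to 4. Each point is 1 library. Control 4 has 921 CPM on the left, below control 3 and control 5, and -0.28 on the right, between them and control 1. Chromosomes 1 to 4 were not a planned reference. Against genes off Z and W, which were, the arms overlap on Z.

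The 10 separating genes with the highest levels are known in the gene table by locus number alone, so no role can be given for them. The first of them, LOC102091633, stood at 208, 96.6 and 203 CPM in control 3, control 4 and control 5, against 0.644 and 0.0569 CPM in control 1 and control 2, and had 0 reads in all 5 race libraries. LOC135577131 stood at 100.7, 64.2 and 107 CPM in the W-expressing libraries and had 0 reads in control 1, control 2 and all race libraries. LOC135577168 stood at 148, 95.4 and 143 CPM in the W-expressing libraries, against 0.537 and 0.682 CPM in control 1 and control 2, with 0 to 0.557 CPM in race libraries. In each of these genes control 4 was the lowest of the W-expressing libraries. By contrast LOC102098165, of the second kind, did not follow the split. It stood at 84.5, 76.0 and 25.7 CPM in control 3, control 4 and control 5, against 122.6 and 51.8 CPM in control 1 and control 2 and 57.8 to 110.3 CPM in race libraries.

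Control 4 had less of nearly every separating W gene than the other W-expressing libraries. Over the 55 such genes chosen by a mean of at least 5 CPM in control 3 and control 5, the ratio of control 4 to the mean of those libraries had a median of 0.369 with quartiles of 0.283 and 0.535, and 54 of the 55 lay below both. The ratio ranged from 0.0279 to 1.24. Control 3 over control 5 had a median of 1.04 over the same genes, with a range of 0.740 to 1.38. Over the 33 genes of the second kind the median ratio of control 4 was 1.09. The 55 genes were chosen on their level in control 3 and control 5, the libraries that control 4 is set against, so the ratios are a description without a test. When genes under 1 CPM in the 7 libraries were instead chosen by at least 5 CPM in control 4, an alternative added after seeing the data, the median ratio was 0.403 over 39 genes, and control 4 lay below both others in 37. With 1 such library, the difference has no replicate.

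**Figure D2:**
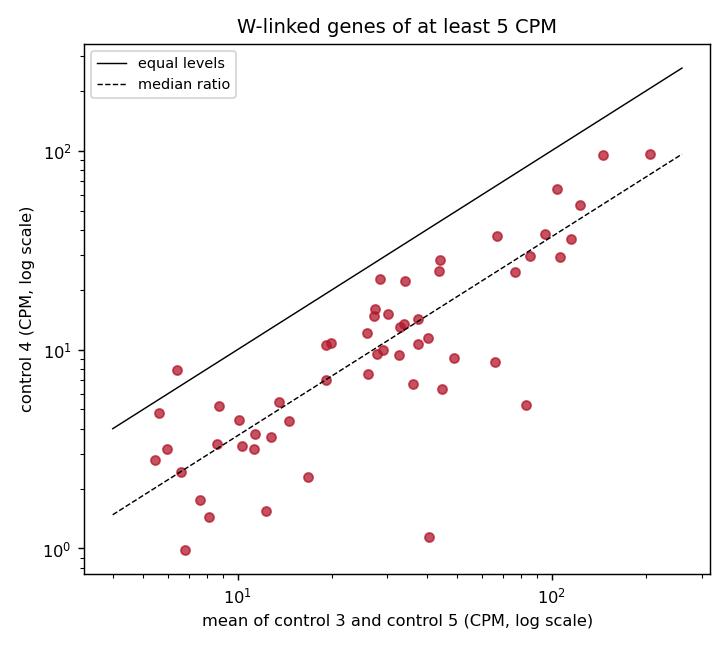
CPM of 55 W-linked genes in control 4 (vertical axis) against the mean of control 3 and control 5 (horizontal axis), both on log scales; each point is 1 gene. The solid line marks equal levels and the dashed line the median ratio of 0.369; 54 genes lie below the levels of both other libraries.

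The first comparison off W asked whether Z-linked genes differed between the arms. They did not choose the arms and can be tested. Against the mean of the race libraries, the median of 724 Z-linked genes stood at -0.64, -0.24 and -0.72 on the log2 scale in control 3, control 4 and control 5, and at -0.70 and -0.20 in control 1 and control 2. On that scale the arms overlap. Race libraries stayed between -0.06 and 0.05. The overlap came with a difference on other chromosomes. Genes of chromosomes 1 to 4 had medians of 0.07, 0.04 and 0.05 in control 3, control 4 and control 5, against -0.52 and -0.13 in control 1 and control 2.

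Control 1 in particular ran in a gradient over the chromosomes. Its median was -0.52 on chromosome 1, -0.58 on chromosome 4, 0.08 on chromosome 10, 0.44 on chromosome 20 and 1.58 on chromosome 30. In control 2 the same chromosomes had -0.13, -0.17, 0.06, 0.10 and 0.38. In control 3, control 4 and control 5 no median of chromosomes 1 to 30 lay outside -0.18 to 0.09. The gradient in control 1 and control 2 has the same direction and was larger in control 1. Its part in the differences between the arms was not tested.

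**Figure D3:**
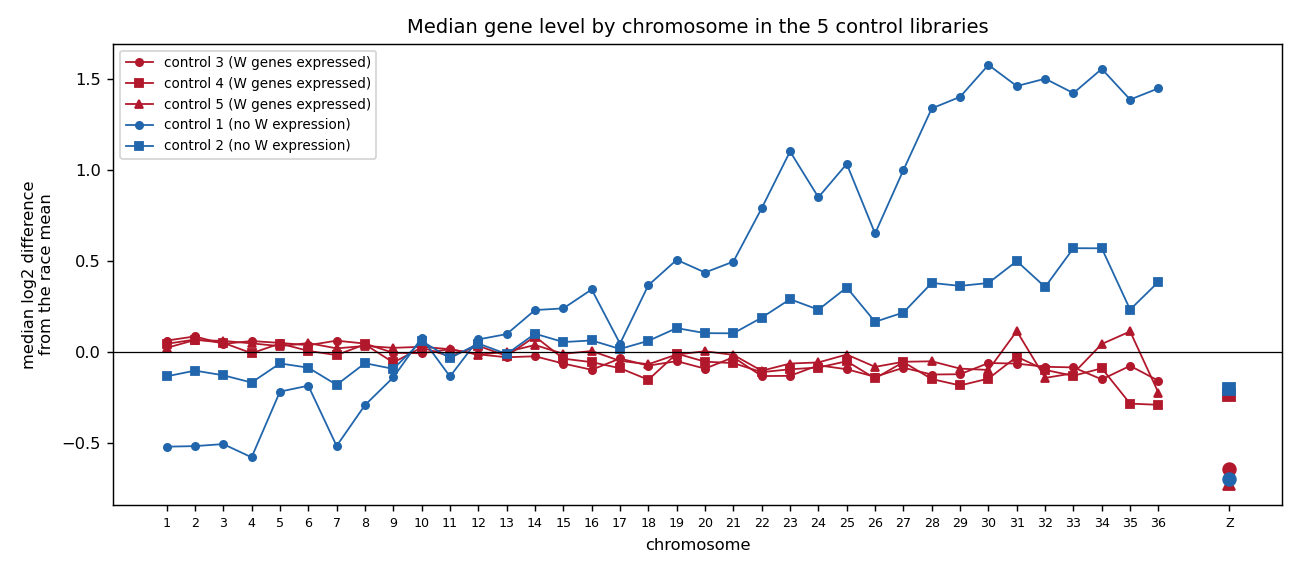
Median log2 difference from the mean of the 5 race libraries for the genes of each chromosome (horizontal axis, Z at the right) in the 5 control libraries; lines join chromosomes 1 to 36. Control 1 runs from -0.52 on chromosome 1 to 1.58 on chromosome 30. The W-expressing libraries stay within -0.18 to 0.09 on chromosomes 1 to 30. On chromosomes 35 and 36 control 4 has -0.28 and -0.29, below its -0.24 on Z. Control 3 and control 5 have -0.64 and -0.72 on Z.

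Genes off Z and W, the planned reference, had medians of -0.04 and -0.0009 in control 1 and control 2. In control 3, control 4 and control 5 they had 0.006, -0.008 and 0.013. Against that reference the arms overlap on Z. Chromosomes 1 to 4 of the same library were not a planned reference. Measured against them, Z-linked genes were lower in all 3 W-expressing libraries than in either of the others. The differences were -0.71, -0.28 and -0.77 in control 3, control 4 and control 5, with a mean of -0.59 ± 0.27 (SD, n = 3), against -0.18 and -0.08 in control 1 and control 2, with a mean of -0.13 ± 0.07 (SD, n = 2). As linear values these are differences of -38.9%, -17.8% and -41.4% in the W-expressing libraries, against -11.6% and -5.32% in control 1 and control 2. The difference of the means was -0.46, and the exact permutation test, two-sided over 10 possible assignments, gave p = 0.2. This test doubles the smaller tail, so with 3 against 2 libraries it can give no lower value than 0.2 and decides nothing here. Control 3 and control 5 lay close together, and control 4 lay nearer to control 1 than to them. Race libraries had -0.01 to 0.02.

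The same was computed between genes of like length, in 5 classes of gene span. The median of Z-linked genes minus that of the other genes of the class was -0.76 to -0.58 (log2) in control 3, -0.35 to -0.16 in control 4 and -0.83 to -0.68 in control 5. In control 1 it was -0.57 to -0.31 and in control 2 it was -0.22 to -0.07. Within span classes control 1 therefore lay between control 4 and control 3, and the arms overlapped. Genes off Z and W also ran with span in the W-absent controls. Their log2 medians in the shortest and longest class were 0.77 and -0.70 in control 1 and 0.27 and -0.14 in control 2. In control 3, control 4 and control 5 those medians lay within -0.03 to 0.08 in every class.

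Single Z-linked genes were then tested with all other genes by edgeR's quasi-likelihood test on the 5 control libraries, two-sided, with Benjamini-Hochberg adjustment over 14556 genes and a threshold of 0.05. Of all genes, 74 (0.508%) passed, 68 (0.467%) higher and 6 (0.0412%) lower in the W-expressing arm. W-linked genes made up 59 of the 74 and are no result, since they chose the arms. Of 691 Z-linked genes tested, 3 were lower and 0 higher, and 12 of 13741 genes off Z and W passed, 9 higher and 3 lower. These calls rest on the W genes in the adjustment. Without W genes in the fit, 0 of 14432 genes passed (0%), the lowest adjusted p was 0.098, and 4272 genes had an unadjusted p under 0.05. Without control 1, 0 genes passed, W-linked genes included, and the lowest adjusted p was 0.184. The genes named below are therefore those that stand out most, and their values by library carry the description.

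Of the 3 Z-linked genes that passed, the 2 described here have locus numbers only, so no role can be given. LOC102095531 stood at 25.04, 19.7 and 15.2 CPM in the W-expressing libraries, against 139 and 120.2 CPM in control 1 and control 2 (log2 fold change -2.71 ± 0.29, SE, adjusted p = 0.0101 by edgeR). LOC135577325 stood at 0.0988, 0.0517 and 0.179 CPM in W-expressing controls, against 7.62 and 5.46 CPM in W-absent controls (adjusted p = 0.0102), and no fold change is given because few reads stand behind the lower values. Race libraries had 9.39 to 90.8 CPM in LOC102095531, all below control 1 and control 2. In LOC135577325 they had 0 to 6.18 CPM, a range that overlapped both arms.

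Next by p on the lower side, with adjusted p from 0.0594 to 0.0863, came NPR2, STOML2, GNG10, TESK1, LOC135577336, MRPL17 and TAF1C, which did not pass. STOML2, a protein of the inner mitochondrial membrane, stood at 16.9, 23.4 and 18.6 CPM in the W-expressing libraries, against 97.0 and 49.4 CPM in control 1 and control 2. TESK1, a protein kinase that acts on cofilin, stood at 37.8, 47.0 and 45.3 CPM in W-expressing controls, against 154 and 90.8 CPM in W-absent controls. Race libraries lay between the arms in both, at 27.5 to 39.98 CPM in STOML2 and 61.1 to 74.6 CPM in TESK1. In both genes all 3 W-expressing libraries were below all 7 others, and control 1 was the highest library.

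On the higher side no Z-linked gene passed. The smallest p belonged to LOC110364754, SREK1, MTMR12, PIK3R1 and VPS13A, with adjusted p from 0.0892 to 0.0934. PIK3R1, the regulatory subunit of phosphoinositide 3-kinase, stood at 282, 301 and 292 CPM in control 3, control 4 and control 5, against 79.98 and 153 CPM in control 1 and control 2. Race libraries had 232 to 321 CPM. Race birds were nearer to the W-expressing mean than to the mean of control 1 and control 2 in all 5 of these genes, in every library.

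Among the Z-linked genes whose copy on W is known from other birds, 35 were tested and 0 passed. BTF3, a factor of nascent polypeptide handling, had the smallest p. It stood at 22.3, 34.4 and 27.3 CPM in control 3, control 4 and control 5, against 77.0 and 62.1 CPM in control 1 and control 2 and 38.3 to 44.6 CPM in race libraries (log2 fold change -1.33 ± 0.28, adjusted p = 0.0863). VCP, the ATPase that extracts ubiquitinated proteins, stood at 115, 188 and 136 CPM in W-expressing controls, against 432 and 288 CPM in W-absent controls, with 229 to 310 CPM in race libraries. UBAP2, chosen after its values were seen, stood at 35.4, 54.5 and 41.2 CPM in W-expressing controls, against 119.97 and 80.1 CPM in W-absent controls, with 73.2 to 85.6 CPM in race libraries. RNF20, a ubiquitin ligase of histone H2B and likewise chosen after its values were seen, stood at 98.7, 139 and 111 CPM in W-expressing controls, against 156 and 172 CPM in W-absent controls, with 184 to 215 CPM in race libraries. In each of these 4 genes control 4 was the highest of the W-expressing libraries.

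Not every such gene followed that order, and of the 35 genes 19 had a negative and 16 a positive log2 fold change. Over all genes tested 47.3% were negative. CHD1, a chromatin remodeller whose W and Z copies are used to sex birds, stood at 47.8, 65.0 and 50.8 CPM in the W-expressing controls, against 16.3 and 39.1 CPM in control 1 and control 2, and at 84.8 to 104 CPM in race libraries. It was chosen after its values were seen. Both arms lay below every race library, and the W-expressing arm was the higher one. The median log2 fold change of the 35 partners was -0.07, against 0.07 over all genes tested. Leaving out 1 library gave -0.32 (without control 4) to 0.14 (without control 2), with -0.24 without control 1. The fit without control 1 and control 4, which left control 3 and control 5 against control 2 alone, gave -0.44, where all genes had 0.03.

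Over all 691 Z-linked genes tested the median log2 fold change was -0.01, where all genes had a median of 0.07. Of these Z-linked genes 349 (50.5%) were negative, where 47.3% of all genes tested were. The sign of the Z-linked median depended on the library left out. It was -0.16 without control 1 and -0.18 without control 4, but 0.32 without control 2, 0.04 without control 3 and 0.08 without control 5. Without both control 1 and control 4 it was -0.40, against 0.03 over all genes in that fit. In the fit without both, which left control 3 and control 5 against control 2 alone, 75 of 698 Z-linked genes were lower and 4 higher, where 2.59% of all genes were lower, 3.95% higher and 6.53% either. With control 2 as the lone library of its arm, that fit assumes that it varies like the others.

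A count that does not depend on control 1 alone compares levels with all 7 libraries that lack W-linked expression. All 3 W-expressing libraries lay below all 7 in 86 of 691 Z-linked genes (12.4%), where 3% of all 14556 genes tested did. They lay above all 7 in 1 Z-linked gene (0.145%), where 3.51% of all genes did. Off Z and W the shares were 2.54% below and 3.10% above. For control 3 and control 5 without control 4, a choice made after its profile was seen, 186 Z-linked genes (26.9%) were below all 7, where 5.12% of all genes were, and 3 were above, where 5.85% of all genes were. These counts are a description without a test.

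Against the race libraries, in a fit of all 10, the W-expressing controls had 85 genes past the threshold (0.565%), 80 higher (0.532%) and 5 lower (0.0333%), of which 74 were W-linked. By the sample records these arms differ in flight as well as in W-linked expression, and the effects cannot be told apart here. The Z-linked medians of control 1 and control 2 also lay below the race mean, at -0.70 and -0.20 (log2). Between W-expressing controls and race libraries 619 of 723 Z-linked genes (85.6%) were negative, where 51.0% of all 15037 genes were. The Z-linked median log2 fold change was -0.53, where all genes had -0.01. Of the Z-linked genes 4 were lower and 0 higher. They were SLC35D2, TRMT10B, TENT2 and RNF20. Without control 4 the Z-linked median was -0.72, against -0.03 over all genes, and 32 of 718 Z-linked genes were lower, where 32 of all 14946 genes (0.214%) were. The W genes, which chose the arms, were in the adjustment of both fits against race libraries. Neither fit was run without them, so these calls are a description. SLC35D2, a nucleotide sugar transporter, stood at 10.1, 17.99 and 9.58 CPM in control 3, control 4 and control 5, and at 26.2 to 38.9 CPM in race libraries. Control 1 and control 2 had 7.998 and 8.30 CPM, so in SLC35D2 both arms were below the race libraries. TRMT10B, a tRNA methyltransferase, stood at 6.62, 10.1 and 7.88 CPM in the W-expressing libraries, against 16.6 to 19.9 CPM in race libraries, while control 1 stood above the race range at 24.5 CPM and control 2 just below it at 15.9 CPM.

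The next comparison asked which genes off the sex chromosomes differed between the arms. SYT10, a synaptotagmin that serves as a calcium sensor of secretion, and LRRK2, a kinase mutated in inherited Parkinson's disease, had the smallest p of the 9 that were higher. SYT10 (chromosome 1) stood at 24.4, 32.3 and 25.2 CPM in control 3, control 4 and control 5, against 2.95 and 4.44 CPM in control 1 and control 2. Race libraries had 2.26 to 15.3 CPM, so the W-expressing arm was above all 7 others. The log2 fold change was 2.86 ± 0.38 with an adjusted p of 0.0216 by edgeR. SYT10 had an adjusted p of 0.0178 by edgeR without control 4, with the W genes again in the adjustment. Without control 1, which left control 2 as the lone library of its arm, the log2 fold change of SYT10 was 2.61.

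LRRK2 (chromosome 1) stood at 68.1, 51.7 and 48.2 CPM in the W-expressing libraries, against 12.02 and 11.9 CPM in control 1 and control 2 (log2 fold change 2.22 ± 0.31, adjusted p = 0.0272). Race libraries had 58.0 to 72.4 CPM. Here the W-expressing libraries overlapped the race birds, with a log2 fold change of -0.19 ± 0.16 between them, and control 1 and control 2 were the low ones. ZFC3H1, a scaffold protein of nuclear RNA decay, repeated that order at 223, 155 and 154 CPM in W-expressing controls, against 39.2 and 42.4 CPM in W-absent controls, with 182 to 248 CPM in race libraries. LAMP3, a lysosomal membrane protein, stood at 22.5, 40.6 and 40.7 CPM in W-expressing controls, against 6.49 and 4.95 CPM in W-absent controls, with 21.3 to 31.8 CPM in race libraries.

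The other 5 higher genes were PKNOX1, a homeodomain transcription factor, USPL1, a SUMO protease, PHF20L1, a reader of methylated lysines, LOC102095164 and LOC135580409. Their log2 fold changes were 1.76 to 2.42 with adjusted p of 0.0297 to 0.0428. In PKNOX1, USPL1, PHF20L1 and LOC135580409 all 5 race libraries were nearer to the W-expressing mean, and in LOC102095164 4 were. Without control 4, PKNOX1, PHF20L1 and LOC135580409 did not pass (adjusted p = 0.0674, 0.0751 and 0.0514 by edgeR). The other higher genes, LRRK2, ZFC3H1 and LAMP3 included, had an adjusted p under 0.05 in that fit. The W genes, which chose the arms, were in its adjustment, and no fit without control 4 left them out.

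The 3 lower genes were CGN, MCOLN1 and FGFR4. CGN (chromosome 28), the tight junction adaptor cingulin, stood at 81.4, 46.5 and 70.0 CPM in control 3, control 4 and control 5, against 384 and 315 CPM in control 1 and control 2, and at 117 to 265 CPM in race libraries. The W-expressing arm was below all 7 others. Its log2 fold change was -2.41 ± 0.32 (adjusted p = 0.0220), and against race libraries it was -1.46 with an adjusted p of 0.0507. MCOLN1 (chromosome 30), a cation channel of lysosomes, stood at 34.1, 35.9 and 31.8 CPM in W-expressing controls, against 109 and 102 CPM in W-absent controls, with 29.8 to 38.1 CPM in race libraries (log2 fold change -1.65 ± 0.24, adjusted p = 0.0297). In MCOLN1 the W-expressing libraries thus lay within the race range. FGFR4, a fibroblast growth factor receptor, stood at 1.19, 0.931 and 1.43 CPM in W-expressing controls, against 12.2 and 6.88 CPM in W-absent controls, with 1.65 to 6.90 CPM in race libraries. Without control 4, MCOLN1 and FGFR4 did not pass (adjusted p = 0.0888 and 0.0583 by edgeR), while CGN did (adjusted p = 0.033), with W genes in the adjustment.

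Following them by p, NOTCH1 and NR1D1 did not pass. NOTCH1, the cell surface receptor, stood at 32.0, 22.2 and 25.8 CPM in the W-expressing libraries, against 90.0 and 81.1 CPM in control 1 and control 2, and at 32.1 to 64.7 CPM in race libraries (adjusted p = 0.0521). NR1D1, a repressor of the circadian clock, stood at 13.7, 11.6 and 10.9 CPM in W-expressing controls, against 50.1 and 34.2 CPM in W-absent controls, with 12.8 to 39.9 CPM in race libraries (adjusted p = 0.0594).

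**Figure D4:**
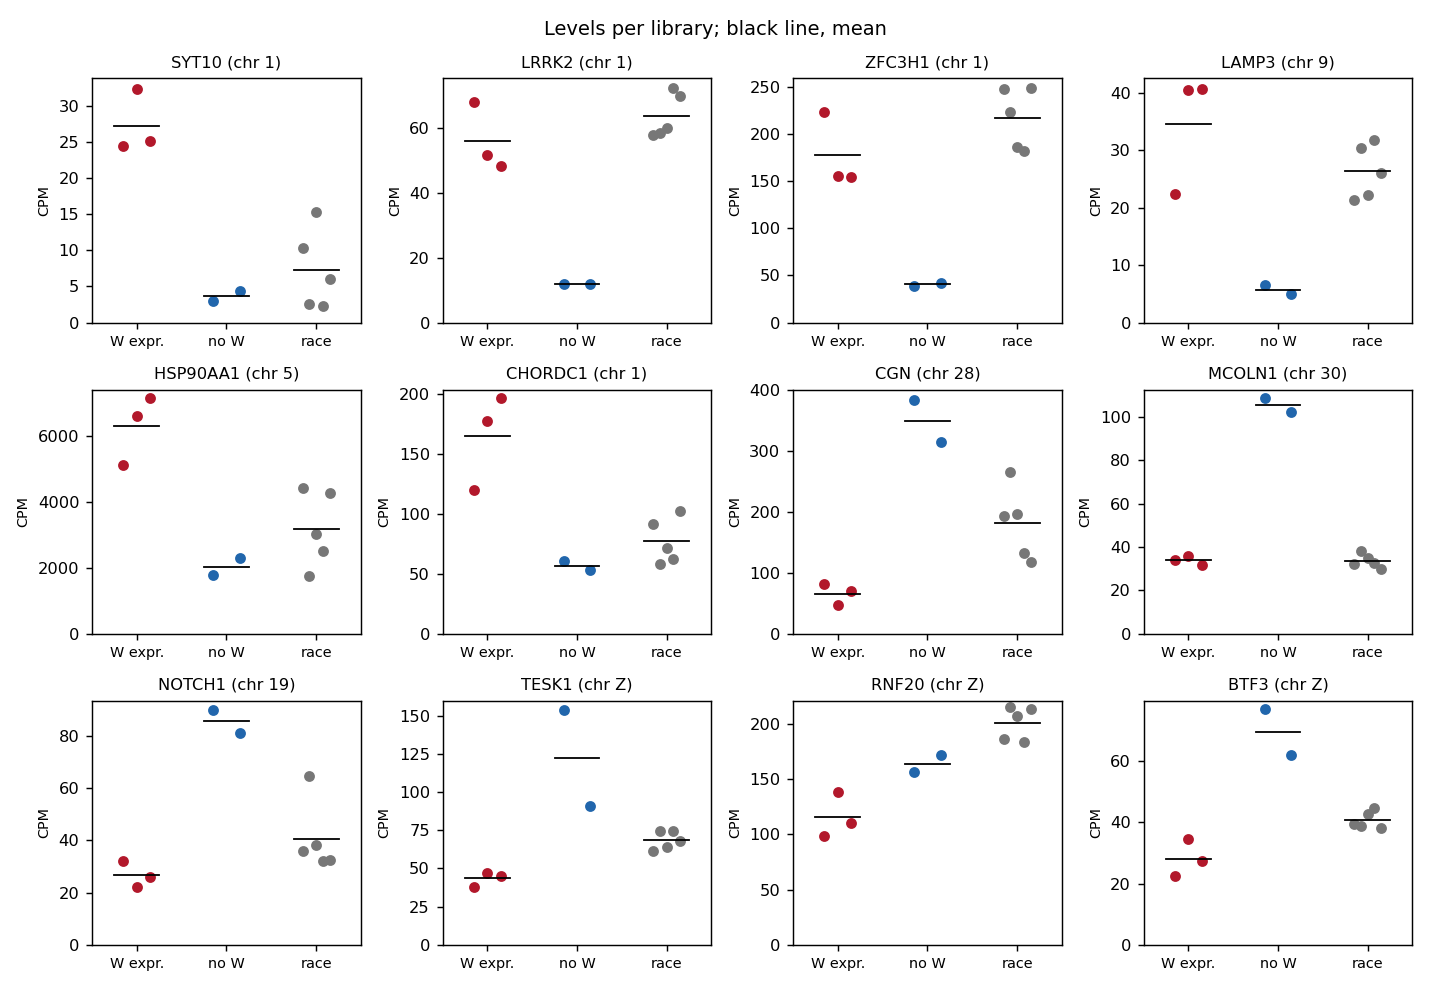
CPM per library of 12 genes in control libraries that express W genes (3 points), control libraries that do not (2 points) and race libraries (5 points); black lines are means and vertical axes start at 0. In LRRK2, ZFC3H1 and MCOLN1 the W-expressing libraries overlap the race libraries, while in SYT10, HSP90AA1 and CHORDC1 they lie above and in CGN, TESK1 and BTF3 below all other libraries.

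Of the 9 higher genes 6 lie on chromosome 1, which holds 1964 of the 15063 genes behind the chromosome medians. With 9 genes that count is a description only. The median gene of chromosome 1 stood at -0.52 in control 1 and -0.13 in control 2 (log2, race mean 0). CGN and MCOLN1 lie on chromosome 28 and chromosome 30, where the medians were 1.34 and 1.58 in control 1 and 0.38 and 0.38 in control 2. In a fit with offsets for each library's trend on gene span, added after seeing the data, 77 of 14555 genes passed, 58 of them W-linked. Of the 15 genes outside W past the threshold, 12 passed there too, with W genes in the adjustment. The part of the chromosome gradient in the calls was not tested.

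How far these genes stand apart has to be read against the whole table. Of 14556 genes tested, 4352 (29.9%) had an unadjusted p under 0.05, 2381 of them lower (16.4%), and in 7518 (51.6%) the arms did not overlap. In the fit of all 10 libraries, in which race birds add to the estimate of the spread, 3882 of 15037 genes passed (25.8%), 1832 higher (12.2%) and 2050 lower (13.6%), and 311 (1.99%) did so without control 1. Of the genes off Z and W that passed with 10 libraries, all 5 race libraries were nearer to the W-expressing mean in 69.0% of 1711 higher and 70.2% of 1963 lower genes. They were all nearer to the mean of control 1 and control 2 in 3.45% of the higher and 0.458% of the lower genes. For the 86 lower Z-linked genes those shares were 20.9% and 23.3%. The means of the arms enter both the choice of these genes and the comparison, so the shares describe where race libraries lay and test nothing.

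Genes outside the range of all 7 libraries lacking W expression also occurred off the sex chromosomes, and a few of small p were picked after their values were seen. RAB36, a small GTPase, stood at 14.9, 24.8 and 10.9 CPM in control 3, control 4 and control 5, against 3.65 and 2.84 CPM in control 1 and control 2, and at 4.44 to 8.60 CPM in race libraries. CERS6, a ceramide synthase, stood at 40.3, 63.0 and 50.6 CPM in W-expressing controls, against 14.1 and 18.5 CPM in W-absent controls, with 24.97 to 35.6 CPM in race libraries. On the lower side GIT1, an adaptor for ARF GTPases at synapses, stood at 173, 164 and 178 CPM in W-expressing controls, against 609.8 and 425 CPM in W-absent controls, with 210 to 545 CPM in race libraries. SMARCC2, a subunit of SWI/SNF chromatin remodelling complexes, stood at 82.7, 75.3 and 78.1 CPM in W-expressing controls, against 274 and 180 CPM in W-absent controls, with 87.9 to 152 CPM in race libraries. Their adjusted p lay between 0.063 and 0.0841, so none passed.

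Gene lists of cell types and pathways were then described by their counts and medians. Their counts of negative and positive members stand beside 47.3% negative over all 14556 genes tested. No list had a member past the threshold among the 5 control libraries. Heat shock proteins and co-chaperones, which fold and protect other proteins, were the list in which W-expressing libraries most often lay above all 7 others. This held for 9 of 42 members (21.4%), where 3.51% of all genes did, and 1 member, BAG2, lay below all 7. HSP90AA1, the inducible cytosolic HSP90, stood at 5125, 6632 and 7151 CPM in control 3, control 4 and control 5, against 1772 and 2292 CPM in control 1 and control 2, and at 1740 to 4444 CPM in race libraries. Its log2 fold change was 1.62 ± 0.33 with an adjusted p of 0.0858 by edgeR.

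CHORDC1, a partner of HSP90, stood at 119, 177 and 196 CPM in W-expressing controls, against 60.4 and 53.0 CPM in W-absent controls, with 57.8 to 102 CPM in race libraries (log2 fold change 1.52 ± 0.31, adjusted p = 0.0858). HSPA4L and HSPH1, nucleotide exchange factors of HSP70, had 416, 539 and 468 CPM and 115, 271 and 113 CPM in control 3, control 4 and control 5. In control 1 and control 2 HSPA4L had 149 and 261 CPM, and HSPH1 had 55.1 and 69.5 CPM. The other members above all 7 were DNAJA4, DNAJB6, FKBP4, HSPA14 and ST13, with log2 fold changes of 0.43 to 0.70. Some cleared the others narrowly, as in DNAJA4 with 154.9 CPM in control 3 and 153.5 CPM in control 1. HSF1, the transcription factor of the heat shock response, ran the other way at 41.6, 42.4 and 49.1 CPM in W-expressing controls, against 111 and 67.8 CPM in W-absent controls, and race libraries had 37.4 to 48.6 CPM. The list's median log2 fold change was 0.13, against 0.07 over all genes, with 22 of 42 members positive. It was 0.35 without control 1 and turned to -0.10 without control 2. The list's mean level (log2, race mean 0) was 0.25, 0.45 and 0.53 in control 3, control 4 and control 5. In control 1 and control 2 it was 0.39 and 0.12, so the level did not separate the arms. The list was among those already described in these data, and its direction is no independent evidence.

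The lists of glia and neurons had medians below 0, which moved widely with the library left out. In bulk tissue fewer cells of a type and less RNA per cell cannot be told apart. Of 26 oligodendrocyte and myelin genes 20 were negative, with a median of -0.55, or -0.71 (without control 3) to -0.29 (without control 4) when 1 library was left out. SOX10, a transcription factor of oligodendrocytes, stood at 34.9, 26.1 and 36.4 CPM in W-expressing controls, against 77.6 and 77.3 CPM in W-absent controls, with 25.8 to 53.7 CPM in race libraries. The list's summed level was 7186, 3434 and 6222 CPM in control 3, control 4 and control 5, against 6176 and 6732 CPM in control 1 and control 2, and 2975 to 5228 CPM in race libraries, so the sum did not separate the arms.

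Granule cell genes had a median of -0.37 (16 of 23 negative), with -0.56 (without control 5) to -0.15 (without control 4) when 1 library was left out. Purkinje cell genes had one of -0.32 (21 of 33), with -0.43 (without control 5) to -0.08 (without control 2). NEUROD1, a granule cell transcription factor, stood at 131, 106 and 167 CPM in W-expressing controls, against 292 and 269 CPM in W-absent controls, with 182 to 247 CPM in race libraries. GABRA6, the granule cell subunit of the GABA-A receptor, ran the other way at 85.1, 53.3 and 93.1 CPM in W-expressing controls, against 23.9 and 44.8 CPM in W-absent controls, with 75.02 to 104 CPM in race libraries. It was chosen after its values were seen. Markers of one cell type thus did not move together. FOXP4, a Purkinje cell transcription factor, stood at 77.1, 54.0 and 83.3 CPM in W-expressing controls, against 381 and 147 CPM in W-absent controls, with control 1 far above every other control.

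Astrocyte and Bergmann glia genes had a median of -0.19 (16 of 25 negative), with -0.50 (without control 4) to -0.09 (without control 1) when 1 library was left out, and 0.02 with offsets for gene span. CLU, the secreted chaperone clusterin, stood at 1268, 712 and 1167 CPM in W-expressing controls, against 4037 and 1947 CPM in W-absent controls, with 849 to 1401 CPM in race libraries. Endothelial and pericyte genes had a median of -0.66 (15 of 25), or -0.95 without control 2 and -0.28 without control 1. Microglia and macrophage genes had one of -0.69 (15 of 19), or -1.02 without control 3 and -0.08 without control 1. The member of smallest p, PTPRC, the leukocyte tyrosine phosphatase CD45, ran the other way at 6.67, 5.58 and 2.28 CPM in W-expressing controls, against 0.859 and 1.25 CPM in W-absent controls, with 3.87 to 6.44 CPM in race libraries (log2 fold change 2.17 ± 0.63, adjusted p = 0.0941). MERTK, a receptor for the uptake of dead cells, stood at 5.83, 4.03 and 5.42 CPM in W-expressing controls, against 44.0 and 6.26 CPM in W-absent controls, so control 1 alone was high. Genes of nucleated red blood cells had a median of -0.61 (8 of 12), or -1.06 without control 3 and -0.42 without control 1, and the choroid plexus, meningeal and ependymal list one of -0.36 (15 of 23), or 0.02 without control 1. Inhibitory interneuron genes had a median of -0.08 (11 of 19), or -0.32 without control 1 and 0.37 without control 2.

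Cytosolic ribosomal protein genes had a median of -0.24 with 53 of 65 negative, and -0.35 (without control 5) to -0.17 (without control 1) when 1 library was left out. With offsets that take out each library's trend on gene span, the median turned to 0.18. The 2 members of smallest p lie on Z. RPL37 stood at 107, 114 and 108 CPM in the W-expressing libraries, against 204 and 244 CPM in control 1 and control 2, and at 134 to 167 CPM in race libraries. RPS6, also on Z and chosen after its values were seen, stood at 277, 325 and 299.5 CPM in W-expressing controls, against 341 and 519.9 CPM in W-absent controls, with 367 to 492 CPM in race libraries. Both were below all 7 other libraries, while RPS23, next to RPL37 by p, overlapped the race libraries. Of the 65 members 4 lie on Z. RPL18, not placed on a chromosome, stood at 130, 122 and 146 CPM in W-expressing controls, against 397 and 165 CPM in W-absent controls. Race libraries had 110 to 143 CPM. Against race libraries, in the fit of all 10, the list's median was 0.27, where all genes had -0.01. Subunits of oxidative phosphorylation had a median of -0.40 (42 of 50), or -0.45 without control 2 and -0.22 without control 1, and it turned to 0.08 with the span offsets. ATP5F1A, the Z-linked alpha subunit of ATP synthase, stood at 502, 785 and 552 CPM in W-expressing controls, against 1639 and 1045 CPM in W-absent controls, with 907 to 1169 CPM in race libraries. Of the 50 members 3 lie on Z. ATP5F1B (chromosome 29) stood at 741, 689 and 877 CPM in W-expressing controls, against 2417 and 1171 CPM in W-absent controls. Race libraries had 622 to 1037 CPM, a range that held the W-expressing libraries. Against race libraries the median of this list was 0.23.

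Circadian clock genes had a median of 0.40 with 18 of 24 positive, or 0.26 without control 1 and 0.62 without control 2. PER2, a clock repressor, stood at 98.7, 100.98 and 111 CPM in W-expressing controls, against 20.7 and 44.3 CPM in W-absent controls, with 62.0 to 146 CPM in race libraries. DBP, a clock-controlled transcription factor, stood at 26.1, 15.3 and 21.4 CPM in W-expressing controls, against 74.7 and 48.3 CPM in W-absent controls, with 15.4 to 29.0 CPM in race libraries. In both genes control 1 and control 2 were outside the race range and the W-expressing libraries were inside or close to it.

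Immediate early genes had a median of -0.18 (19 of 33 negative), which turned to 0.17 without control 1, 0.11 without control 3 and 0.22 with the span offsets. Glucocorticoid response genes had one of -0.38 (13 of 21), or -0.15 without control 1 and -0.06 without control 1 and control 4. Antioxidant genes had a median of -0.16 (23 of 39), which turned to 0.02 without control 2. Interferon-stimulated genes had one of 0.23 with 13 of 22 positive, which turned to -0.09 without control 1 and -0.16 without control 1 and control 4. The immediate early, antioxidant and interferon lists thus had medians whose sign depended on the library left out. The list of Z-linked genes named in studies of avian sex and dosage had a median of -0.02 (16 of 32), or 0.47 without control 2 and -0.58 without control 1 and control 4. Genes of sex steroid synthesis and receptors had a median of -0.25 (11 of 19), or -0.01 without control 1 and -0.35 without control 4. SRD5A1, a steroid 5-alpha reductase, stood at 12.1, 10.8 and 8.73 CPM in W-expressing controls, against 2.95 and 5.35 CPM in W-absent controls, with 7.29 to 10.4 CPM in race libraries. In SRD5A1 the W-expressing libraries overlapped the race birds, and control 1 was the farthest library.

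**Figure D5:**
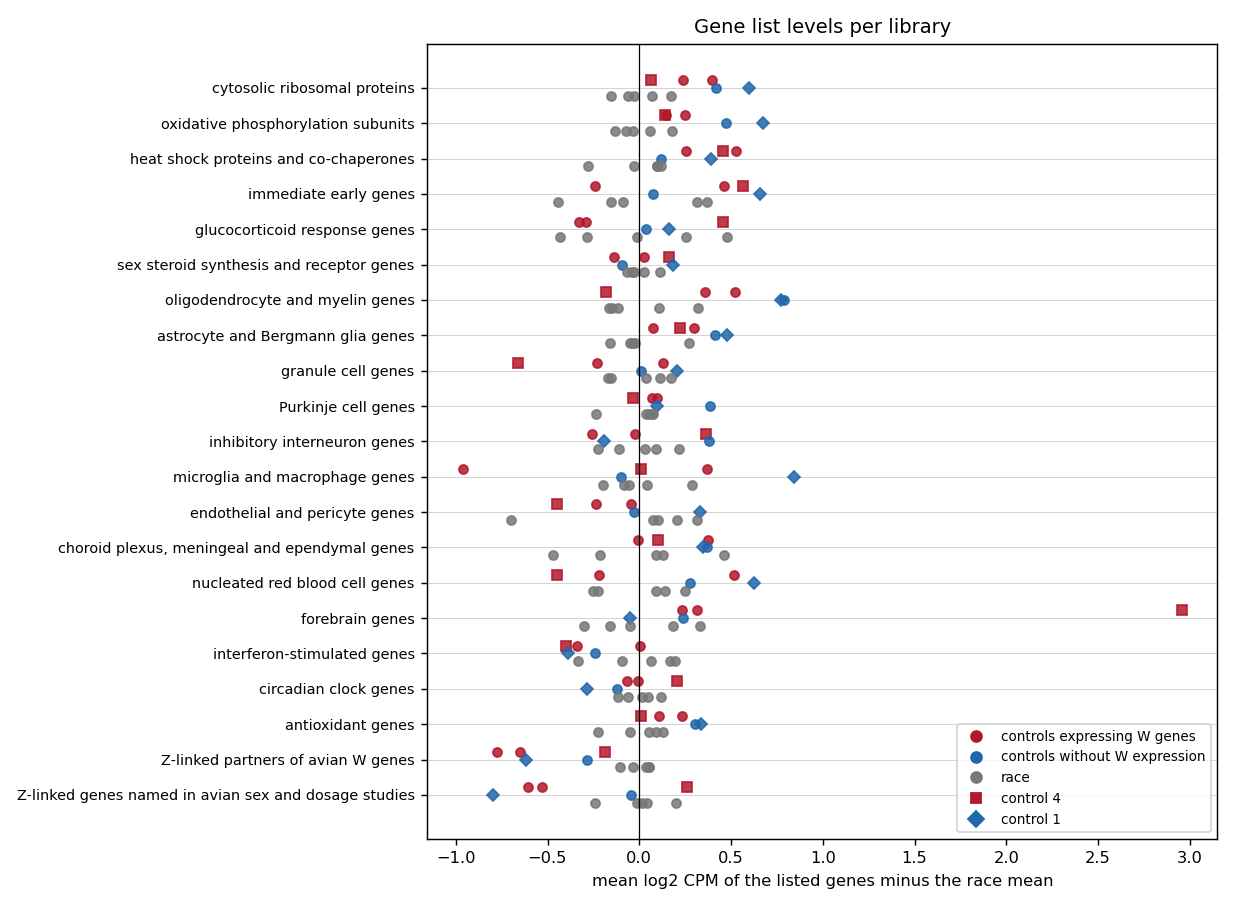
Mean log2 CPM of the members of each gene list minus the mean of the race libraries; each point is 1 library, squares are control 4 and diamonds control 1. Forebrain genes in control 4 stand at 2.95, while no other library exceeds 0.33 on that list.

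Control 4 stood apart on the forebrain list. Its level of the 29 forebrain genes was 2.95 (log2, race mean 0), where the other 9 libraries had -0.30 to 0.33. The list's median log2 fold change of 2.01 between the arms was 0.26 without control 4. The 5 genes with the largest ratio to the other control libraries were RASD2, STUM, GDA, CAMKV and SST. RASD2, a small GTPase of the striatum, stood at 160.4 CPM in control 4, and at 0.607 to 3.02 CPM in all other libraries. SST, the somatostatin precursor, stood at 91.4 CPM, with 0 to 2.17 CPM elsewhere. TBR1, a transcription factor of forebrain projection neurons chosen after its values were seen, stood at 76.1 CPM, with 0.376 to 2.60 CPM elsewhere. GDA, a guanine deaminase on Z, stood at 117.6 CPM, with 0.268 to 2.03 CPM elsewhere.

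In all, 215 of 12297 genes were at least 4-fold higher in control 4 than in every other control, against 0 in control 3, 2 in control 5, 32 in control 1 and 5 in control 2. Granule cell genes were at their lowest in the same library, with a list level of -0.66 where the others had -0.23 to 0.20, and myelin genes had -0.18 where the other controls had 0.36 to 0.79. Race libraries had -0.17 to 0.32 on the myelin list, so control 4 lay close to the lower race libraries there. The lower level of W genes, the smaller Z deficit and the forebrain genes of control 4 were thus found in 1 library, and their relation was not tested.

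Control 1 differed mostly by modest changes in many genes. It was at least 2-fold above every other control in 1328 of the 12297 genes and at least 2-fold below in 812, where the highest counts in the other libraries were 492 above, in control 4, and 84 below, in control 2. The largest ratios belonged to CACNG1, a calcium channel subunit of skeletal muscle, and 4 genes with locus numbers. CACNG1 stood at 11.4 CPM in control 1, with 0.247, 0.103 and 0 CPM in control 3, control 4 and control 5 and 0.171 CPM in control 2. Race 3 had 6.51 CPM and the other race libraries 0.0944 to 0.800 CPM. LOC135576924 (chromosome 35) stood at 22.5 CPM in control 1, and at 0.236 to 1.19 CPM in all others.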

How the data were processed

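The cerebellum of 10 racing homers was profiled by RNA sequencing. The authors deposited raw HTSeq read counts per gene, 1 table per sample, without normalization. Per the submitters' processing notes the reads were handled with STAR 2.7.10a, HTSeq 0.13.5, fastp 0.23.2, MultiQC 1.14 and FastQC 0.11.5. Neither build, annotation, kit nor strand setting is given in the sources used here, so counts of overlapping and near-identical genes are uncertain. Rows that name no gene held 18.1% to 23.4% of the counts and were left out. A single uncharacterised gene, LOC135578006, held 3.79% to 9.04% of the gene counts. Gene totals were 17953704 to 23344086 per library, which limits the precision of genes with few reads.

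Of 22547 genes, 22268 were found in RefSeq's table for bColLiv1.pat.W.v2, from which only chromosome, gene order and gene span were taken. The members of the arms and the gene lists were chosen with earlier results of these data known, and the 3 against 2 split rests on W-linked counts. The 5 control libraries were fitted with the quasi-likelihood test of edgeR 4.0.16 (with limma 3.58.1 in R 4.3.3) after filterByExpr with a minimum count of 10 and TMM scaling, with Benjamini-Hochberg adjustment over all genes and a threshold of 0.05. The biological coefficient of variation was 0.372. Levels relative to the race mean are log2 CPM with a prior count of 2. The pipeline was tested on simulated counts.

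Named off Z and W were up to 10 genes per direction that passed, by smallest p, no overlap of the arms and a mean log2 CPM of 1 or more, and where fewer than 5 passed, named genes of smallest p made up 5. On Z the 10 lower and 5 higher genes of smallest p, on W the 10 of highest level, 3 members of smallest p per list, and for control 4 and control 1 the 5 genes with the largest ratio to the other controls were taken. Not all are given with every value, and some are not reported here. Alternatives were scaling by RLE or by library size alone, other filters and thresholds, limma voom, DESeq2 1.42.0, fits without W or Z genes, without LOC135578006, with all 10 libraries and without each library. Added after seeing the data were span offsets, race libraries as the arm without W expression, and the 10-library fit without each control. Neither the reference to chromosomes 1 to 4 nor the permutation test on it was planned.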

Additional observations from a re-analysis of the deposited data

Results flagged for a closer look

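In 16 of 111 values 1 of the 5 control libraries lay far from the other 4, with a gap to the nearest of more than 0.71 of the range. In independent groups of normal spread chance flags about 1 in 20. All values here came from the same 5 libraries, and many genes were chosen by small p, so that rate is no benchmark for them. In control 4 these were the level of the forebrain list, 2.95 (log2, race mean 0), and the CPM of SV2C, 41.4, a synaptic vesicle protein on Z. SV2C had 2.86 and 3.22 CPM in control 3 and control 5 and 0.215 and 2.45 CPM in control 1 and control 2.

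All other such values were high levels in control 1. They were 33.5 CPM for TAF1C, 397 CPM for RPL18, 2417 CPM for ATP5F1B, 505 CPM for NDUFV1, 26.2 CPM for KLF2 and 105 CPM for MCL1. They were also 198 CPM for HEPACAM, 381 CPM for FOXP4, 44.0 CPM for MERTK, 31.9 CPM for TIE1, 31.1 CPM for COL1A1, 672 CPM for SPTB, 49.4 CPM for UROD and 127 CPM for SESN2. The cause was not tested.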

How the results depend on the processing

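No paired analysis was possible because the replicate numbers were given in accession order and pair no libraries. Counts without control 1 or without control 2 rest on 1 library in the W-absent arm. The count of genes past the threshold, 74, was 132 with no filter on low counts, 46 with limma voom, 2701 with DESeq2, 1737 at an adjusted p under 0.10, 3882 with all 10 libraries, 965 without control 1 and control 4 and 0 without W genes; leaving out 1 library gave 0 (without control 1) to 5192 (without control 2). In the 10-library fit, leaving out control 1, 2, 3, 4 or 5 gave 311, 6571, 1719, 2435 and 2341. For Z-linked genes, 3 in all, the same order gave 6 with no filter, 98 with DESeq2, 67 at 0.10, 122 with all 10 libraries, 79 without control 1 and control 4 and 0 without W genes; leaving out 1 library gave 0 to 137, and in the 10-library fit, in the same order, 18, 207, 64, 104 and 77. For genes off Z and W, 12 in all, the counts were 28 with no scaling factor, 54 with no filter, 23 with a minimum count of 50, 6 with limma voom, 2526 with DESeq2, 1583 at 0.10, 3674 with all 10 libraries, 810 without control 1 and control 4, and 0 without W genes or without Z and W genes; leaving out 1 library gave 0 to 4976, and in the 10-library fit 252, 6286, 1579, 2245 and 2184. Of the 15 genes outside W past the threshold, 10 remained without control 4, 3 without control 3 and 2 without control 5, each with W genes in the adjustment. The median log2 fold change of Z-linked genes, -0.01, was -0.40 without control 1 and control 4. Leaving out 1 library gave -0.18 to 0.32, with 0.32 without control 2, and the same 0.32 without control 2 in the 10-library fit. The -0.46 measured against chromosomes 1 to 4 is a difference of arm means of library values, so it is another quantity than this median. Among single genes, without control 1 and control 4 the log2 fold change turned to -0.32 for RASD2, -0.54 for GDA, -0.33 for SST and -0.96 for CAMKV; for CAMKV, leaving out 1 library gave -0.84 (without control 4) to 5.01, and the 10-library fit without control 4 gave -0.85. The causes of these changes were not tested, apart from the smaller number of libraries or genes that some alternatives have by construction.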
